A study of Mus musculus with 10 samples.

Results

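The data described here are the RNA levels of 10 genes that are used as markers of resident-like and alternatively activated macrophages, in macrophages with and without the actin regulator WASp, before and after a short physical confinement. The genes are Mrc1, Cd163, Folr2, Lyve1, Arg1, Chil3, Retnla, Clec10a, Ccl24 and F13a1. They were picked by symbol from a table of 57010 gene identifiers, with earlier results of these data known, and each symbol matched 1 identifier. Of the 10, 7 passed the filter on low values (a mean of at least 10 normalized counts over all libraries) and were tested among 12455 genes, while Ccl24, Lyve1 and Retnla fell under it and are given by their counts alone.

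The cells were primary mouse bone marrow-derived macrophages (BMDM), which are grown from marrow precursors and are not taken from a tissue where macrophages reside. Marrow from the femurs of wild-type (WT) mice or of WASp knockout (WKO) mice was kept for 7 days in RPMI with 20 ng/mL of recombinant mouse M-CSF, the growth factor that drives macrophage differentiation. All 4 groups share this culture, and the labels name no IL-4, IL-13 or other activating cytokine for any of them. The 4 groups were 2 WT unconfined libraries (replicates 1 and 3), 3 WT confined libraries (2, 3 and 6), 2 WKO unconfined libraries (1 and 3) and 3 WKO confined libraries (1, 2 and 5). For confinement, PDMS micropillars lowered a ceiling onto the cells, leaving 3 µm of height, for 1 h. The labels do not give the knockout allele, the strain, sex or age of the mice, the number of animals, whether replicates came from separate cultures, or whether unconfined cells were placed in the device. The p-values below therefore measure only the spread between these libraries, which may be technical.

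Macrophages are commonly described by the programmes they run. Resident-like macrophages, which settle in tissues and clear debris, carry scavenger and endocytic receptors such as the products of Mrc1, Cd163, Folr2 and Lyve1. Alternative activation is the state induced by IL-4 and IL-13 through the IL-4 receptor and the transcription factor STAT6, and in mice its classical readouts are Arg1, Chil3 and Retnla, with Clec10a, Ccl24 and F13a1 often added. WASp, the product of Was, activates the Arp2/3 complex to build branched actin in blood cells.

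Each library held between 13295701 and 19329908 reads, recovered from the deposited normalized counts, so that 3 reads, the lowest number treated as detection here, were worth between 2.35 and 3.59 normalized counts. Was itself had group means of 1474 and 1612 normalized counts in the unconfined and confined WT groups and of 148 and 107 in the WKO groups, and the closest libraries of the genotypes, at 1308 in WT and 154 in WKO, were well apart. All 8 macrophage marker genes on the list used for the check, among them Adgre1 and Csf1r, were detected in every library. The libraries also held RNA of other marrow cell types, and these sums are given beside the results they move with. As these are bulk samples, fewer cells of a type and less RNA per cell cannot be told apart.

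The 10 markers covered the full range from among the most abundant transcripts to no reads at all. Compared per kilobase of exon, Mrc1 averaged 2882 normalized counts over the 10 libraries, above 98.6% of the 12315 tested genes that have a length. Folr2 averaged 2360 per kilobase, above 98.1% of those genes, and Chil3 averaged 2015, above 97.6%. The ranges of these 3 genes over the libraries overlapped (2471 to 3547, 1976 to 2959 and 337 to 3961 per kilobase), so their order is not firm, and Chil3 was by far the most variable of them.

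Clec10a came next at 78.8 normalized counts per kilobase (55.4 to 104), near the middle of the tested genes. F13a1 averaged 25.2 per kilobase (7.87 to 56.5), Cd163 averaged 18.6 (6.15 to 38.0) and Arg1 averaged 12.1 (2.15 to 29.8), and these ranges overlap widely. Ccl24 lay at 2.94 per kilobase (0 to 6.34), Lyve1 at 0.415 (0 to 1.64) and Retnla at 0. Plentiful mannose receptor and folate receptor RNA was found together with little Arg1 and no detected Retnla RNA, in both genotypes and both conditions.

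**Figure D1:**
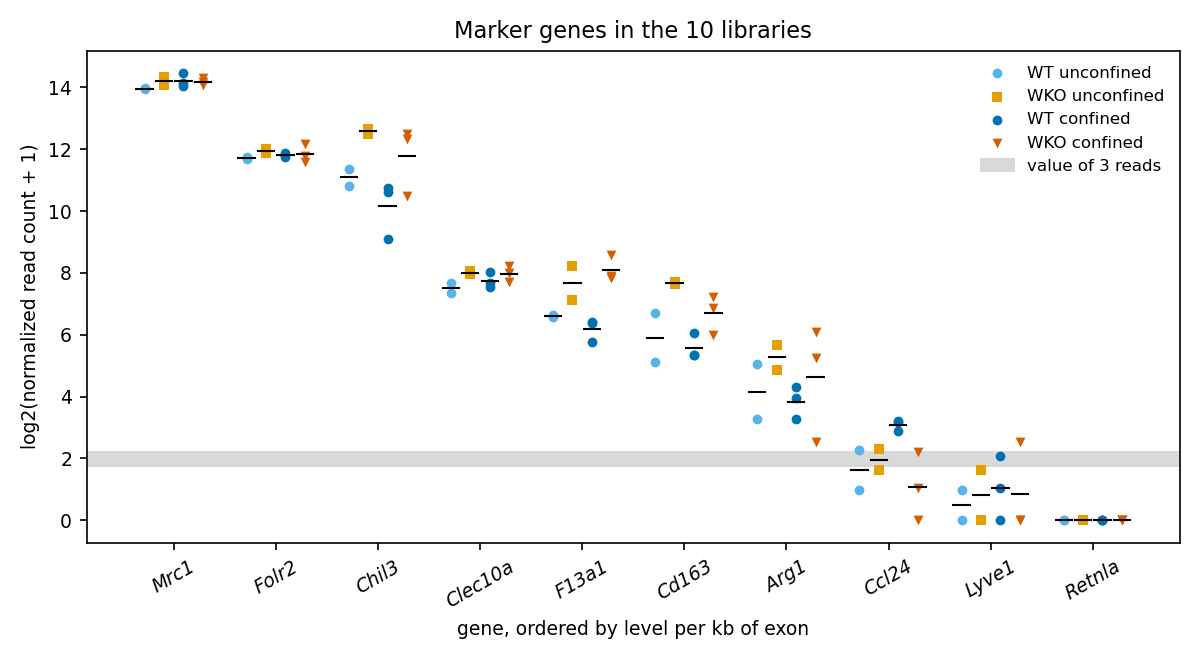
Level of each marker in each of the 10 libraries, as log2(normalized read count + 1), with the genes ordered by their mean level per kilobase of exon; points are libraries, short bars are group means, and the grey band is the value of 3 reads. Mrc1 and Folr2 hardly vary, Chil3, F13a1 and Cd163 sit higher in most WKO libraries, and Ccl24, Lyve1 and Retnla lie at or near the band.

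Among the scavenger and endocytic receptors, Mrc1 encodes the mannose receptor CD206, which takes up glycoproteins and microbes (ENSMUSG00000026712, GRCm38 chr2:14229392-14332057, + strand). It held 16130.3 and 15742 normalized counts in WT unconfined libraries 1 and 3, 18080.2, 16979.6 and 22598 in WT confined libraries 2, 3 and 6, 17279.8 and 20605 in WKO unconfined libraries 1 and 3, and 17487, 18657 and 20081 in WKO confined libraries 1, 2 and 5. The highest library was 1.44 times the lowest, and both extremes were WT. Folr2, which encodes folate receptor beta, a marker of many tissue-resident macrophages, was as even, running from 3054 normalized counts in WKO confined library 5 to 4575 in WKO confined library 1 (chr7:101839988-101857194, - strand). Exons of the antisense gene Gm10602 overlap 63.1% of the exon bases of Folr2. Whether the counting used strand is not given in the sources used here, so reads of this pair cannot be told apart with certainty.

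Cd163 encodes the receptor that removes haemoglobin bound to haptoglobin (ENSMUSG00000008845, chr6:124304656-124330527, + strand). It held 103 and 33.6 normalized counts in the WT unconfined libraries, 39.6, 65.7 and 39.4 in the WT confined libraries, 198 and 208 in the WKO unconfined libraries, and 149.9, 117 and 62.3 in the WKO confined libraries, each in the order given for Mrc1. The WKO unconfined libraries were the highest, and of the WKO libraries confined library 5 was the lowest and fell within the WT range. Clec10a encodes a galactose-type lectin receptor and ranged from 161 normalized counts in WT unconfined library 1 to 301 in WKO confined library 5 (chr11:70156197-70170834, + strand). Its paralog Mgl2 matches 31.3% of the Clec10a transcript at 95% identity or more, and Mgl2 was itself low, with group means between 17.4 and 37.9 normalized counts. Lyve1, a hyaluronan receptor of perivascular and interstitial macrophages, reached 3 reads in 2 of 10 libraries and 12 reads in all (chr7:110850607-110863239, - strand).

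Among the secreted products, Chil3 encodes the chitinase-like lectin Ym1, a textbook readout of alternative activation that is also made by neutrophils and their precursors (ENSMUSG00000040809, chr3:106147554-106167564, - strand). It held 1809.7 and 2632 normalized counts in the WT unconfined libraries, 1582, 1706 and 549 in the WT confined libraries, 6464 and 5808 in the WKO unconfined libraries, and 5184, 5719.7 and 1431 in the WKO confined libraries. Of the WKO libraries, 4 lay above every WT library and the remaining WKO confined library 5 lay below 4 of the WT libraries. The near-copy Chil4, whose transcript matches that of Chil3 at 94.3% identity over 1540 bases, never reached 3 reads, so little of the Chil3 signal was assigned to it. Another near-copy, Gm6522, matches at 94.96% identity over 1171 bases, and its counts were not examined.

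Retnla, which encodes the secreted protein RELM-alpha, had 0 reads in all 10 libraries (chr16:48842551-48844461, + strand). With counting error alone, 0 reads allow up to 3 reads, or between 2.35 and 3.59 normalized counts, per library. Ccl24 encodes an eosinophil-attracting chemokine and had 38 reads in all (chr5:135569937-135573049, - strand). Its 3 WT confined libraries held 6.43, 8.21 and 8.03 normalized counts, and its 3 WKO confined libraries held 0, 1.05 and 3.59, a separation that rests on 6 to 10 reads against 0 to 3 and was not tested because the gene was under the filter.

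Among the enzymes, Arg1 encodes arginase 1, which diverts arginine from nitric oxide synthesis (chr10:24915221-24927484, - strand). It was low and erratic, from 4.79 normalized counts (4 reads) in WKO confined library 5 to 66.3 in WKO confined library 2, so the extremes belonged to the same group. F13a1 encodes the catalytic A subunit of the fibrin-crosslinking transglutaminase factor XIII, which monocytes and macrophages make (ENSMUSG00000039109, chr13:36867178-37050244, - strand). It held 99.7 and 94.0 normalized counts in the WT unconfined libraries, 84.6, 82.1 and 53.0 in the WT confined libraries, 298 and 139 in the WKO unconfined libraries, and 240.1, 226 and 381 in the WKO confined libraries. Every WKO library was above every WT library. Gm30489 lies antisense to it and overlaps 1.10% of its exon bases.

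The promoters of 6 of the 10 markers are in the RefSeq table (build GRCm38.p6), and 5 are shown to compare the steady and abundant Mrc1, the undetected Retnla and the 3 genes that differed between genotypes. Each line gives the 250 bases before the RefSeq start, 5′ to 3′ on the gene's strand, without bases inside the GENCODE gene, which removes the last 22 bases for Mrc1 and the last 58 for Retnla. Capitals mark matches to any of 4 motifs searched on both strands in the 250 bases before the RefSeq start: GAGGAA (PU.1, the factor that drives macrophage identity), TTGCNNAA (C/EBP), TTCNNNNGAA (STAT6) and TGANTCA (AP-1).
Mrc1, chr2:14229164-14229391, + strand: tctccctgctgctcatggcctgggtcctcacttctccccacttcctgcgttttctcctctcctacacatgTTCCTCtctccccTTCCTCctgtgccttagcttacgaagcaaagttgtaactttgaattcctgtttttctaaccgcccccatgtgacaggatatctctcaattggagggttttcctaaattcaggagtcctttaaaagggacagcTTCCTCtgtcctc
Retnla, chr16:48842359-48842550, + strand: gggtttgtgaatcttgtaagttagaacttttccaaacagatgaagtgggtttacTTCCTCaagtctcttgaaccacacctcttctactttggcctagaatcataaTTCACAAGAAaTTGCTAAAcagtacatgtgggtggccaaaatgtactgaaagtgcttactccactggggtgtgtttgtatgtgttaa
F13a1, chr13:37050245-37050494, - strand: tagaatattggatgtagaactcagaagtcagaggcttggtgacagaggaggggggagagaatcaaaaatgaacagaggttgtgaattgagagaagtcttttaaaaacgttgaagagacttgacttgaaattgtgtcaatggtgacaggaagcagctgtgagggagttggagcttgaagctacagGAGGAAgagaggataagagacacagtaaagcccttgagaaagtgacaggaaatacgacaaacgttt
Cd163, chr6:124304401-124304650, + strand: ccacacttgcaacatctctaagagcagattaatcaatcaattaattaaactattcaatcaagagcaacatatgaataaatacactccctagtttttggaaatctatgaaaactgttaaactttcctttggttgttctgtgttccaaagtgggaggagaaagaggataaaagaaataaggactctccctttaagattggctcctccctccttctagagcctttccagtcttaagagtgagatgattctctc
Chil3, chr3:106167565-106167814, - strand: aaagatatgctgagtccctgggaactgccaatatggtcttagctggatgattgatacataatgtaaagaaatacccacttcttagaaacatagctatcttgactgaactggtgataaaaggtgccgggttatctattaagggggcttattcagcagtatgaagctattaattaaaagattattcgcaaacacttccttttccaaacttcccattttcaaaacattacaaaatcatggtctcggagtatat

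The Mrc1 stretch held 3 copies of TTCCTC, the PU.1 motif read on the other strand, beginning 180, 167 and 35 bases before the RefSeq start, from which all positions here are counted. Retnla, the marker with no reads, also held TTCCTC, at 196, and was the only member with an entry whose stretch held the STAT6 motif, as TTCACAAGAA at 145, next to the C/EBP match TTGCTAAA at 134, with no overlap between them. F13a1 held GAGGAA at 66, while the window of its other RefSeq start (chr13:37049214-37049463, not shown) held none of the 4. The Cd163 and Chil3 stretches also held none of the 4. Of all 32851 RefSeq windows of 250 bases, 23.3% held the PU.1 motif, 9.56% the C/EBP motif, 5.85% the STAT6 motif and 6.75% the AP-1 motif, so most of these matches are common. The matches are letters in a window and carry no measurement of binding.

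The comparison of the genotypes asks whether macrophages without WASp carry more or less of these markers. Averaged over both conditions, F13a1, Chil3 and Cd163 were 2.82-fold, 2.93-fold and 2.72-fold higher in WKO than in WT, while Mrc1 and Folr2 differed by 1.08-fold and 1.09-fold and did not pass the test. Of the 7 tested markers, 3 were called, with an adjusted p under 0.05 from limma over all tested genes, and all 3 were higher in WKO. Of all 12455 genes tested, 5.57% were called in this comparison and 2.9% were called as higher. The median log2 difference, WKO minus WT on the log2(normalized count + 1) scale, was 0.94 over the 7 markers and 0.00333 over all tested genes.

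F13a1 was 2.82-fold higher in WKO (95% interval 1.95 to 4.06, log2 difference 1.49 ± 0.24 SE, limma adjusted p = 0.00525). Each of the 5 WKO libraries was above each of the 5 WT libraries, as held for 3.38% of the tested genes. The call stood in all 20 alternative settings, including 10 of 10 with a library left out, and the adjusted p reached at most 0.0321, in limma without the mean-variance trend.

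Cd163 was 2.72-fold higher in WKO (1.65 to 4.49, log2 difference 1.44 ± 0.33 SE, limma adjusted p = 0.0278), with overlapping groups. Its call rests on few reads, 35 to 201 per library, and on most of the libraries: it was lost in 6 of the 10 fits that left out a library. These were the fits without WKO confined library 2 (adjusted p = 0.0566), WKO unconfined library 1 (0.0947), WKO unconfined library 3 (0.124), WT confined library 2 (0.0661), WT confined library 6 (0.0616) and WT unconfined library 3 (0.0907), all from limma. The log2 difference stayed between 1.05 and 1.84 in those 10 fits.

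Chil3 was 2.93-fold higher in WKO (1.61 to 5.33, log2 difference 1.55 ± 0.40 SE, limma adjusted p = 0.0428), with WKO confined library 5 inside the WT range. The call was lost in 9 of 10 fits that left out a library, with a limma adjusted p of 0.0511 to 0.169, and stood without WKO confined library 5, at a log2 difference of 1.87 and an adjusted p of 0.00111. The 9 libraries whose omission ended the call were all 5 WT libraries, both WKO unconfined libraries and WKO confined libraries 1 and 2. Without WKO confined library 5 the same 3 markers were called.

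The other 4 tested markers were not called. Clec10a had a log2 difference of 0.37 (0.04 to 0.71, limma adjusted p = 0.186) and Arg1 of 0.94 (-0.47 to 2.35, adjusted p = 0.46), the latter with an interval wide enough to hold a 5.09-fold excess in WKO. Folr2 had a log2 difference of 0.12 with an interval of -0.11 to 0.35, and Mrc1 of 0.11 with an interval of -0.10 to 0.32. For these abundant receptors the upper bounds amount to 1.27-fold and 1.25-fold, so differences of the size seen for F13a1 are outside the intervals.

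**Figure D2:**
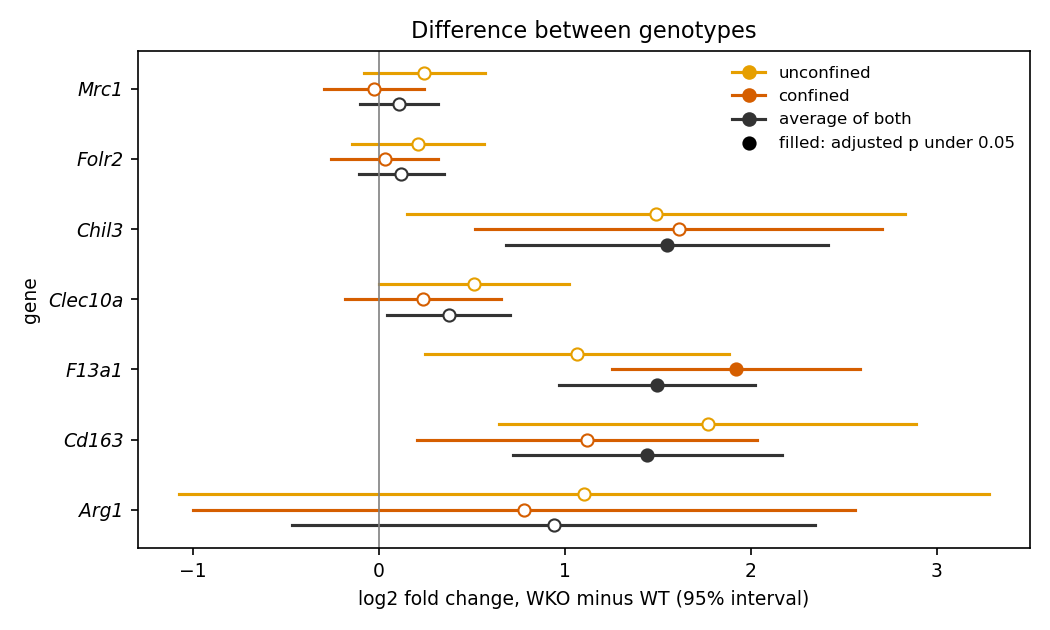
Log2 fold change of WKO over WT for the 7 tested markers, with 95% intervals, in unconfined cells, in confined cells and averaged over both; filled points have a limma adjusted p under 0.05. F13a1, Cd163 and Chil3 lie between 1.07 and 1.92 in every contrast, and Mrc1 and Folr2 lie at 0.24 or below.

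Within each condition fewer markers passed the test. In unconfined cells, with 2 libraries against 2, none of the 7 was called by limma, against 0.145% of all tested genes (18 genes), and 9.6% of tested genes had an unadjusted p under 0.05. Among the 7, Cd163, Chil3 and F13a1 had such a p, and DESeq2 and edgeR on the recovered reads also called none. Cd163, with 68.1 ± 48.8 normalized counts in WT and 203 ± 6.51 in WKO (SD, n = 2 each), had a log2 difference of 1.77 and a limma adjusted p of 0.248. Chil3 had a log2 difference of 1.49 (adjusted p = 0.467) and F13a1 of 1.07 (adjusted p = 0.373). In 6 of the 7 markers, all but Arg1, both WKO libraries were above both WT libraries, as in 22.2% of all tested genes.

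In confined cells, with 3 libraries against 3, F13a1 alone was called. It averaged 73.3 ± 17.6 normalized counts in WT and 282 ± 85.6 in WKO (SD, n = 3 each), a 3.79-fold difference (2.39 to 6.02, log2 1.92 ± 0.31 SE, limma adjusted p = 0.0107). Called genes made up 2.59% of all tested genes, and 1.38% were called as higher. The F13a1 call held in 19 of 21 alternatives. It was lost without the mean-variance trend (limma adjusted p = 0.0553) and with a replicate block, where Chil3 was called instead. The replicate numbers 5 and 6 each occur in 1 library. The block therefore in effect also leaves out WKO confined library 5 and WT confined library 6. Chil3 had a log2 difference of 1.61 (limma adjusted p = 0.119), which became 2.25 with an adjusted p of 0.00499 without WKO confined library 5. Cd163 had a log2 difference of 1.12 (adjusted p = 0.197), Arg1 of 0.78 and Clec10a of 0.24, while Mrc1 and Folr2 were at -0.03 and 0.03.

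The comparison of confined with unconfined cells asks whether 1 h under the ceiling shifted the markers. None of the 7 was called in WT, in WKO or in the average over genotypes, where 1.16%, 1.72% and 6.21% of all tested genes were called. In the 42 alternative fits run for each marker in the 2 genotypes there was likewise no call, and the smallest adjusted p among them was 0.125, for Cd163. The averaged confinement difference had an unadjusted limma p under 0.05 for Chil3 alone among the 7, and for 21.6% of all tested genes.

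Cd163 averaged 203 ± 6.51 normalized counts in unconfined and 109.7 ± 44.2 in confined WKO cells (SD, n = 2 and 3), with every confined library below both unconfined ones. Its log2 difference, confined minus unconfined, was -0.97 (-1.99 to 0.05, limma adjusted p = 0.377), and 13.8% of all tested genes had all confined WKO libraries below the unconfined ones. In WT the Cd163 difference was -0.32 (-1.35 to 0.70). Chil3 was lower in every confined library than in every unconfined library of the same genotype, at log2 differences of -0.94 in WT and -0.81 in WKO, and 17.7% of the tested genes showed such a separation in WT and 13.8% in WKO. Averaged over genotypes Chil3 stood at -0.87 (-1.74 to -0.01, limma adjusted p = 0.227).

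F13a1 had opposite signs after confinement, -0.43 (-1.17 to 0.32) in WT and 0.43 (-0.32 to 1.17) in WKO, and the difference between these was 0.86 (-0.20 to 1.91, limma adjusted p = 0.999). No gene was called for a difference in confinement effect between genotypes: 0.0% of all tested genes were called by limma, 258 genes (2.07%) had an unadjusted p under 0.05, and no marker did. DESeq2 and edgeR called no marker in this comparison either. Mrc1 had a confinement difference of 0.26 (-0.04 to 0.56) in WT, where all 3 confined libraries were above both unconfined ones as in 18.3% of the tested genes, and of -0.01 (-0.31 to 0.29) in WKO.

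**Figure D3:**
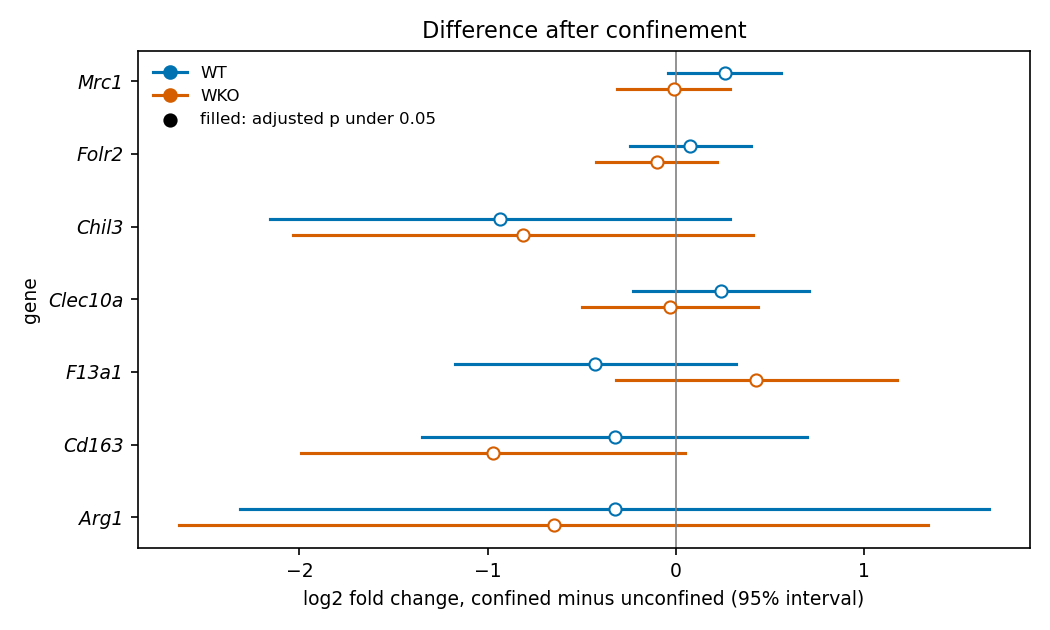
Log2 fold change of confined over unconfined cells for the 7 tested markers, with 95% intervals, in WT and in WKO; no point is filled because no marker had a limma adjusted p under 0.05. All intervals include 0, and those of Mrc1 and Folr2 are the narrowest.

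The profile of Chil3 over the 10 libraries was nearly that of genes stored in neutrophil granules. Likeness was measured as the root mean square difference between log2 values, each gene centred on its own mean, among the 10216 tested genes with a mean of at least 50 normalized counts. The 3 closest genes to Chil3 were Ltf (0.17), which encodes the granule protein lactoferrin, Lcn2 (0.21), which encodes an iron-chelator-binding granule protein, and Ngp (0.21), neutrophilic granule protein, whereas the median gene was at 1.13. Chil3 varied 11.8-fold over the libraries, and its ratio to Ltf varied 1.48-fold, from 0.721 to 1.07. WKO confined library 5 and WT confined library 6, the lowest of their genotypes for Chil3, were also the lowest for Ltf, at 1771 and 669 normalized counts.

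**Figure D4:**
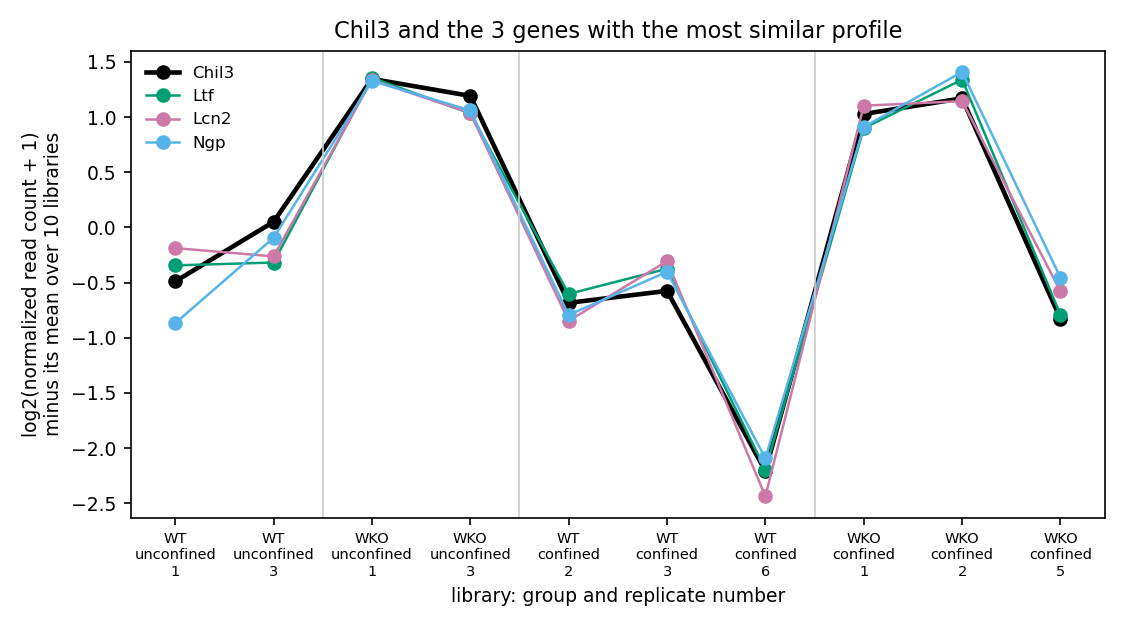
Chil3 and the 3 genes with the most similar profile, as log2(normalized read count + 1) minus each gene's mean, in the 10 libraries; lines join the points of a gene only to guide the eye, and vertical lines separate the groups. The 4 genes are high in 4 of the 5 WKO libraries and low in WT confined library 6 and WKO confined library 5.

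Markers of neutrophils and granulocyte progenitors moved with Chil3 as a group. Their summed level over 13 genes was 8169.7 to 11651 normalized counts in the WT unconfined, 2983 to 9113 in the WT confined, 26038 to 31747 in the WKO unconfined and 8099 to 29710.4 in the WKO confined libraries, where the lowest was again library 5. All 13 genes were tested and 6 were called as higher in WKO in the average over conditions, where 2.9% of all tested genes were called as higher. The median log2 difference of the 13 was 1.55, and 11 were called without WKO confined library 5. Among them S100a9 rose by 1.81 and Ngp by 1.70 as log2 differences (adjusted p = 0.0165 and 0.0225 from limma). The count fell to 0 without WT unconfined library 1 or either WKO unconfined library, to 2 without WT confined library 2 or 6 or WKO confined library 2, and to 3 or 4 without WT unconfined library 3 or WT confined library 3. All 13 genes had reads in 9 of the libraries, and 1 of them was at 0 in WKO confined library 5. Eosinophil and mast cell markers, 7 genes, were far lower and also followed Chil3 in part, with sums of 138 to 151 in the WT unconfined, 27.3 to 131 in the WT confined, 234 to 279 in the WKO unconfined and 28.8 to 167 normalized counts in the WKO confined libraries. The lowest were again WT confined library 6 and WKO confined library 5, and 0 to 6 of the 7 genes were at 0 in a library. Only 2 of the 7 were tested, and in the average over conditions 1 was higher and 1 lower in WKO. The higher one, Prg2, was called (3.03, limma adjusted p = 0.00614), and the lower one was not. The part of these cells in the Chil3 difference was not tested.

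F13a1 and Cd163 had other neighbours. The genes closest to F13a1 were Plxdc2 (0.26), Cd38 (0.30) and Fcgr2b (0.36), the inhibitory Fc receptor, where the median gene was at 0.92. Those closest to Cd163 were Epb41l3 (0.39), Slc40a1 (0.46), which encodes the iron exporter ferroportin, and Ccdc88c (0.46), against a median of 0.95. Monocyte markers, 8 genes that include Ly6c2 and Ccr2, summed to 302 to 908 normalized counts in WT and 926 to 1637 in WKO libraries, so the genotypes did not overlap, as for F13a1. Within WKO the 2 differed: confined library 5 had the lowest monocyte sum, 926, and the highest F13a1 value, 381 normalized counts. All 8 were detected above 0 in every library. Of these genes 2 were called as higher in WKO in the average over conditions, Ly6c2 at 1.78 (limma adjusted p = 0.00959) and Hp at 1.35 (0.017), and 5 were called without WKO confined library 5, 3 without WT confined library 2, 1 without WKO unconfined library 3 and 0 without WT unconfined library 1 or WKO unconfined library 1. The share of all tested genes called as higher in WKO in that average was 2.9%. Stromal markers, which include Col1a1 and Cxcl12, summed to 237 to 2093 normalized counts in WT and 1072 to 12202 in WKO libraries, the highest being WKO confined library 5, where F13a1 was also highest. The defining genes were not all detected, with 1 to 4 of 13 at 0 in the WT libraries and up to 1 in the WKO libraries. Dendritic cell markers, 9 genes, summed to 25.7 to 72.9 normalized counts in WT and 71.4 to 182 in WKO libraries, with 1 to 4 of them at 0 in each library and Xcr1 at 0 in all. The part of these cells in the F13a1 and Cd163 differences was not tested.

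The even markers had even neighbours: Mmachc, Srp19 and Zc3h14 for Mrc1 (0.08 to 0.10, median gene 0.28), Yipf1, Ncaph2 and Aimp2 for Folr2 (0.07, median gene 0.28), and Ccdc174, Gabpb1 and Igfbp4 for Clec10a (0.12 to 0.14, median gene 0.36). For Mrc1 the root mean square deviation from its own mean was 0.16, so a small distance there goes with values that hardly move.

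Of 26 further genes of resident macrophages, 20 were tested. In the average over conditions 10 were called as higher in WKO and none as lower, where 2.9% of all tested genes were called as higher. The median log2 difference was 0.74, and 11 were called without WKO confined library 5. Mertk, the receptor for apoptotic cell uptake, rose from 1787 ± 151 and 1693 ± 233 normalized counts in WT unconfined and confined cells to 3593 ± 195 and 3556 ± 341 in WKO (SD, n = 2 and 3), a log2 difference of 1.04 (limma adjusted p = 0.000274). Slco2b1, an organic anion transporter, rose by 1.40 (0.000701), Fcgrt, the neonatal Fc receptor, by 0.98 (0.00111), Hpgd, a prostaglandin-degrading enzyme, by 2.21 (0.00269) and Gpr34, a lysophosphatidylserine receptor, by 1.24 (0.00614). The count fell to 7 without WKO unconfined library 1 and to 5 without WKO unconfined library 3, and was 8 to 11 without any other library. The summed level of the list was 106404 to 120432 in WT and 149906 to 196075 normalized counts in WKO libraries. Selenop alone held 27717 to 87894 normalized counts of it. The sum of the 8 general macrophage markers separated the genotypes in the same direction. It was 179561 to 208283 in WT and 241895 to 314561 in WKO libraries, and none was at 0. Lyz2 alone held 100507 to 200203 normalized counts. Mertk, which is on both lists, Csf1r (0.40) and Lyz2 (0.46) were called as higher in WKO in the average over conditions (limma adjusted p = 0.0225 for Csf1r and 0.0229 for Lyz2). The median log2 difference of the 8 markers was 0.21, and 2 of them were lower in WKO. The part of these markers in the resident gene differences was not tested.

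Some genes of the resident list were near the floor in all groups: Cd209b and Cd209g had 0 reads, Cd209f never reached 3 reads, and Vsig4 and Timd4 peaked at 10.9 and 18.7 normalized counts. Others that mark specialised resident cells were plentiful in every library, with Cd5l at 10321 to 17181 and Siglec1 at 3484 to 8654 normalized counts. Between genotypes, 0.145% of all tested genes were called in unconfined and 2.59% in confined cells. For confinement the shares were 1.16% in WT, 1.72% in WKO and 6.21% in the average. In unconfined cells only Mertk of this list was called (7 without WKO confined library 5, 2 without WKO confined library 1, and 0 without any 1 unconfined library or WT confined library 3), and in confined cells 6 were called, all higher in WKO, or 4 to 7 with a library left out. After confinement Ednrb was called as higher in WT (1.54, limma adjusted p = 0.0453; the list's count was 2 without WKO confined library 1 or 5 and 0 without any other library), none was called in WKO, and in the average Ednrb rose by 1.17 and Slco2b1 fell by 0.77. That averaged count of 2 was 0 without WT unconfined library 3, 1 with WKO unconfined library 1 or 3 left out and 4 without WKO confined library 1.

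Of 19 further IL-4 and STAT6 target genes found in the table, 13 were tested. In each averaged comparison 1 was called, where 5.57% (genotype) and 6.21% (confinement) of all tested genes were called. Ear2 was called as higher in WKO in the average over conditions (1.51, limma adjusted p = 0.0359), and Cish, a feedback inhibitor of cytokine signalling, as higher after confinement in the average over genotypes (1.86, 0.0229). With a library left out these counts were 0 to 1 and 0 to 4. The genotype count fell to 0 without WT unconfined library 1, WT confined library 3 or 6, WKO unconfined library 1 or 3, or WKO confined library 2. The confinement count fell to 0 without WT unconfined library 1, any 1 WT confined library or either WKO unconfined library. No gene of the list was called by limma within a condition or a genotype, where DESeq2 called 2 in confined cells and 2 for confinement in WKO. Without WKO confined library 5 limma called 1 in confined cells and 1 for confinement in each genotype, and 1 was also called in confined cells and for confinement in WKO with WT unconfined library 1 or 3 left out, and for confinement in WKO without WKO confined library 1. Ccl17 had 0 reads in all libraries and Chil4 never reached 3 reads, as for Retnla. Tgm2 and Egr2 were detected in every library but varied widely, from 1203 to 7537 and from 387 to 5374 normalized counts.

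The receptors and regulators of the programme were expressed: all 18 were tested, and Stat6 had group means between 4171 and 4507 normalized counts. In the average over conditions Klf4 (0.69), Il10ra (0.62) and Il4ra (0.42), the specific chain of the IL-4 receptor, were higher in WKO, with limma adjusted p-values of 0.0307, 0.0419 and 0.0428. The median of the list was 0.20, and 2.9% of all tested genes were called as higher. This count of 3 was 0 to 5 with a library left out: 0 without WT unconfined library 1, WT confined library 2 or 3 or WKO unconfined library 3, 1 without WT unconfined library 3, WT confined library 6 or WKO unconfined library 1, and 5 without WKO confined library 1. After confinement 3 regulators rose in each genotype, where 1.16% of all tested genes were called in WT and 1.72% in WKO. Without unconfined library 1 of the genotype concerned 1 was called, in WT 2 were called without any 1 of its confined libraries, and in WKO 5 were called without confined library 1. Klf4, a transcription factor, rose by 3.26 in WT and 4.03 in WKO, Kdm6b, a histone demethylase, by 2.83 and 2.79, and Cebpb by 1.95 and 1.92 on the log2 scale, with limma adjusted p-values from 1.14e-05 to 0.0218. None of the 7 tested markers was called in those comparisons.

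Classical activation genes, listed as the counterpart, included 12 tested genes of 20. In the average over conditions 2 were called as higher in WKO, Fpr2 and Cd38, and 0 without WT unconfined library 3 or WKO unconfined library 1, or 1 without WT unconfined library 1, WKO unconfined library 3 or WKO confined library 2. The share of all tested genes called as higher in WKO in that average was 2.9%. For confinement, 1.16% of all tested genes were called in WT and 1.72% in WKO. Of the classical genes, Tnf rose after confinement by 6.47 in WT and 6.46 in WKO, Il1b by 5.36 and 5.68, and Ptgs2 by 4.32 and 5.85 on the log2 scale, with limma adjusted p-values from 0.000438 to 0.00584. These 3 were all that was called in WT, where 7 were called without WKO confined library 5, 2 without WT unconfined library 3 and 1 without WT unconfined library 1. In WKO 6 were called, 4 without any 1 of the WT libraries, 3 without WKO unconfined library 3 and 2 without WKO unconfined library 1. Not all of the list rose: of the 12 tested genes, 4 were lower after confinement in WT and 2 in WKO. In the average over genotypes 6 were called as higher and 1 as lower, where 6.21% of all tested genes were called. That count was 6 to 8 with a library left out. Nos2, the enzyme that competes with arginase for arginine, reached 3 reads in 1 of 10 libraries.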

How the data were processed

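RNA sequencing of 10 libraries was deposited by the authors as a table of normalized counts, a signal on a linear scale; FastQC, Trim Galore and STAR and the builds GRCm38 and mm10 are named in the submitters' processing notes. The counting tool, annotation and use of strand are not given in the sources used here. In each library the deposited values were whole multiples of the value of 1 read (100.0% within a tolerance of 1e-06), which gave whole reads and depth. Groups came from the genotype and treatment labels. Values were tested as log2(normalized count + 1) with limma 3.58.1 in R 4.3.3: 1 mean per group over all 10 libraries (6 residual degrees of freedom), empirical Bayes with a mean-variance trend, genes with a mean of at least 10, and Benjamini-Hochberg adjustment over all 12455 genes. The log2(value + 1) scale understates the change of low genes. Errors and intervals are limma's. edgeR 4.0.16 and DESeq2 1.42.0 on the recovered reads, another pseudocount (5), no filter, other scalings, array weights, a replicate block and leaving out each library were alternatives. The fit was tested on simulated data. Lengths and coordinates are from GENCODE M21 (GRCm38), in which 4981 identifiers of the table are absent, and shared sequence was found with blastn 2.17.0. The genes and lists were chosen with earlier results of these data known. Named genes were the 10 markers, Was, up to 5 called genes of each list by smallest p, near-copies and the 3 closest profiles. Adgre1, Csf1r, Ccr2, Col1a1, Cxcl12, Cd5l, Siglec1, undetected genes and Stat6, Tgm2 and Egr2 were named after their values were seen.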

Additional observations from a re-analysis of the deposited data

How the results depend on the processing

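Of the 3 genotype calls in the average over conditions, F13a1 stood in 20 of 20 alternatives, Cd163 in 12 and Chil3 in 9. The count of markers called was 1 without the filter and 1 without the mean-variance trend, and 1 to 3 when a library was left out. In confined cells, where 1 was called, it was 0 without the trend (F13a1 adjusted p = 0.0553), 4 with array weights (Arg1, Cd163, Chil3 and F13a1), 2 without WT confined library 6 and WKO confined library 5 together, a setting chosen after seeing the data, and 1 to 2 when a library was left out. In unconfined cells, where 0 were called, it was 1 with only those libraries fitted and 1 without that pair, Chil3 in each. Same-numbered libraries did not deviate together (correlations of -0.11 to 0.08). With 2 or 3 libraries per group, each group centred on its own mean, these correlations cannot decide whether the numbers pair the libraries. With a replicate block 2 markers were called in unconfined cells (Cd163 and Chil3), and in confined cells Chil3 was called in place of F13a1. WT confined library 6 and WKO confined library 5 share their number with no other library, so the block in effect also leaves them out. Its results therefore cannot be read as an effect of pairing alone. No other call for a marker changed with the block. Counts over all genes moved far more: in the unconfined, confined and averaged genotype comparisons limma called 18, 322 and 694 genes, and the alternatives 4 to 245, 53 to 1948 and 169 to 1804. Differences that were not called changed sign under some settings, and the cause was not tested. With the replicate block, Mrc1 stood at 0.088 (genotype, confined), Cd163 stood at 0.20 (confinement, WT), Folr2 stood at 0.16 (confinement, WKO), Arg1 stood at 0.28 (confinement, WKO), Arg1 stood at 0.44 (difference between confinement effects), Mrc1 stood at -0.0091 (confinement, average), Folr2 stood at 0.18 (confinement, average), Arg1 stood at 0.059 (confinement, average). With array weights, Mrc1 stood at 0.0091 (genotype, confined), Folr2 stood at -0.034 (genotype, confined), Arg1 stood at 0.49 (confinement, WKO), Arg1 stood at 0.75 (difference between confinement effects), Arg1 stood at 0.12 (confinement, average), Clec10a stood at -0.019 (confinement, average). Without that pair of libraries, Mrc1 stood at 0.044 (genotype, confined), Folr2 stood at 0.028 (confinement, WKO), Arg1 stood at 0.39 (confinement, WKO), Arg1 stood at 0.77 (difference between confinement effects), Folr2 stood at 0.053 (confinement, average), Arg1 stood at 0.0053 (confinement, average), Clec10a stood at -0.029 (confinement, average). With edgeR, Arg1 stood at 0.43 (difference between confinement effects). With DESeq2, Arg1 stood at 0.44 (difference between confinement effects). With a pseudocount of 5, F13a1 stood at 0.0062 (confinement, average). With TMM scaling, F13a1 stood at 0.0051 (confinement, average). With a library left out, the log2 differences that changed sign ranged as follows: Mrc1 -0.11 to 0.095 (genotype, confined), Folr2 -0.13 to 0.16 (genotype, confined), Cd163 -1.12 to 0.47 (confinement, WT), Arg1 -1.22 to 0.57 (confinement, WT), Mrc1 -0.14 to 0.11 (confinement, WKO), Folr2 -0.26 to 0.028 (confinement, WKO), Arg1 -1.38 to 0.39 (confinement, WKO), Clec10a -0.16 to 0.11 (confinement, WKO), F13a1 -0.12 to 0.97 (confinement, WKO), Cd163 -1.44 to 0.14 (difference between confinement effects), Arg1 -1.22 to 0.72 (difference between confinement effects), Chil3 -0.40 to 0.77 (difference between confinement effects), Folr2 -0.093 to 0.053 (confinement, average), Arg1 -0.93 to 0.033 (confinement, average), F13a1 -0.27 to 0.27 (confinement, average).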

Other observations

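Multinucleated and bone-resorbing cells share the macrophage lineage, and their markers lay on the other side of the genotypes from the genes above. The summed level of 7 osteoclast and giant cell markers was 3319.5 to 5614 normalized counts in WT and 1284 to 2179 in WKO libraries, with no overlap. Mmp9 alone ran from 482 to 4391 normalized counts. Of the 5 tested markers, all 5 were lower in WKO in the average over conditions, and 1 was higher in confined cells. In that average 5.57% of all tested genes were called. Averaged over conditions, Dcstamp, which encodes a protein needed for macrophage fusion, fell by 1.90, Mmp9, a gelatinase, by 1.45 and Ctsk, cathepsin K, by 0.86 on the log2 scale in WKO (limma adjusted p = 0.000439, 0.0162 and 0.00525). Calcr, the calcitonin receptor, had 0 reads in all libraries. No explanation was tested.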
